A study of Harpegnathos saltator with 14 samples.

Results

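A set of 74 coding gene models of the ponerine ant Harpegnathos saltator had its highest levels in first-instar larvae, out of 20317 models with identifiers starting HSALG. A model was a member when the lower of its 2 instar 1 levels, as log2(RPKM + 1), lay at least 1 above its highest level in the other 12 libraries. RPKM scales reads by gene length and library depth. The members were thus chosen by the measured RPKM values themselves, so the height of the instar 1 levels is a description and was not tested. The identifiers are not paired with gene names in the deposited table, and 0 of the 74 members matched the RefSeq gene table of assembly Hsal_v8.6, so members are given by identifier and no role is assigned to any of them.

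The first instar is the stage that leaves the egg. Ant larvae are legless, grow through a series of molts and are fed by workers, and those of Harpegnathos are raised on prey that foragers bring to the nest. Hatching therefore joins the end of embryonic patterning with the start of feeding, gut function and the growth of a larval cuticle, while pupae do not feed and rebuild the body into the adult.

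The libraries came from poly(A) RNA of whole bodies in 7 groups of 2 libraries each. Larvae of instar 1 were profiled beside embryos, instar 4 larvae, pupae at an early and at a late stage, adult workers, and males. The animals were kept in plaster nests on live crickets. The labels give no ages, no colony and no number of animals per library. Nothing says that replicates came from separate animals, so each p-value reflects how far apart these libraries lay, which may be technical variation. In whole bodies, fewer cells of a type and less RNA per cell cannot be told apart. Reads in genes numbered 5484446 and 4521514 in the instar 1 libraries and between 4273973 and 14217312 in the other libraries. The median log2(RPKM + 1) over the 12421 genes tested was 2.53 and 2.08 in instar 1 larvae, against 3.22 and 3.06 in embryos and 1.88 to 2.79 in the other libraries. On the RPKM scale the median was thus highest in embryos. That order depends on the scaling, since median scaling, used below as an alternative, sets these medians equal. Marker genes of tissues could not be checked, since no identifier has a name.

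Of all reads in genes, the 74 members together held 9.89% and 15.7% in instar 1 larvae. In the other 12 libraries they held between 0.286% in late pupa replicate 2 and 1.15% in embryo replicate 2. Mean levels in instar 1 ran from 4.56 to 19303 RPKM with a median of 265 RPKM, and 18 members reached 1000 RPKM. Of the 10 most abundant HSALG models of the first instar, 7 were members. The 3 most abundant members held 49.2% of the members' summed mean RPKM and, as short models, 2.63% and 6.06% of reads in genes in instar 1 larvae.

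**Figure D1:**
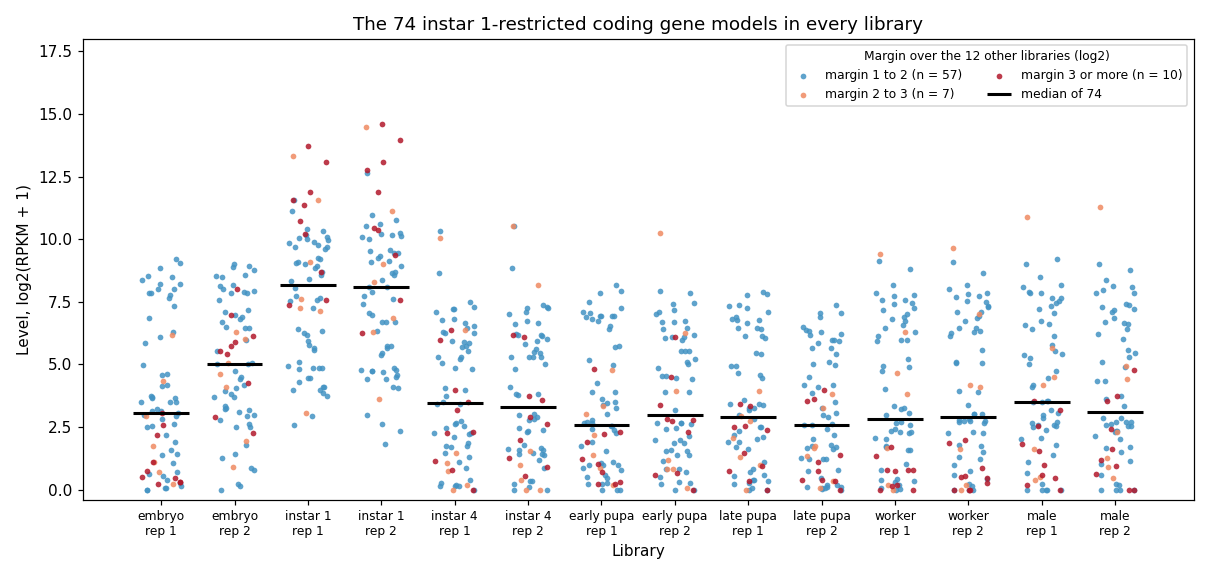
Level of each of the 74 members, as log2(RPKM + 1), in each of the 14 libraries, with 1 point per member, colours for the margin of the lower instar 1 level over the other 12 libraries, and a black bar for the median of all members. Medians stand at 8.18 and 8.08 in the instar 1 libraries, at 5.03 in embryo replicate 2 and between 2.57 and 3.51 in the others.

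**Figure D2:**
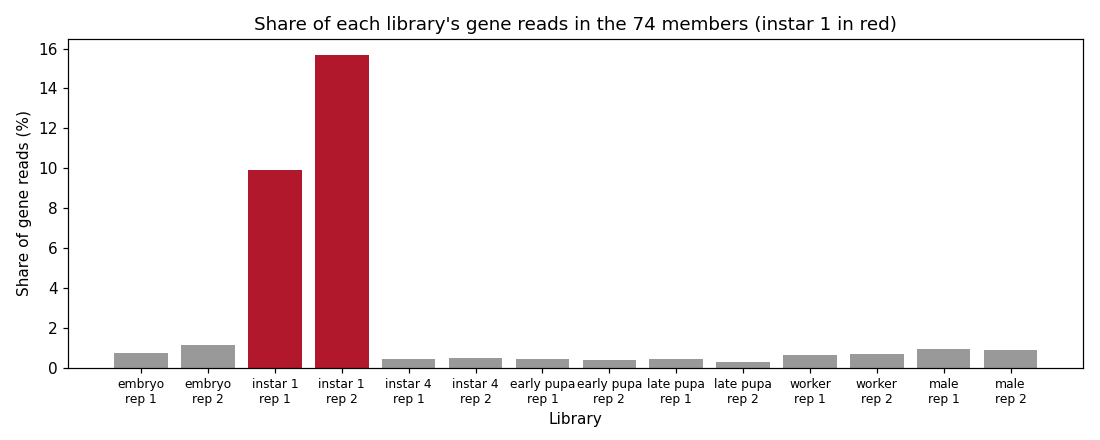
Share of each library's gene reads, in percent, that fell in the 74 members, with 1 bar per library starting at 0 and no error bars. The instar 1 bars stand at 9.89% and 15.7%, and the highest other bar, embryo replicate 2, at 1.15%.

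The set spans transcripts that were nearly silent elsewhere and others that were present in every library. The margin was 3 or more on the log2 scale in 10 members, between 2 and 3 in 7, and between 1 and 2 in 57. On the linear scale the lower instar 1 value was 2.01 to 204 times the highest value elsewhere, with a median of 2.61. All 14 libraries reached an RPKM of 1 in 42 members, and 16 members had at least 1 library with 0 reads. Both worker libraries were under 1 RPKM for 19 members, both late pupa libraries for 16, and both embryo libraries for 5.

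HSALG008802.2, with a coding length of 387 bases, was the most abundant HSALG model of the first instar, at 13725 and 24881 RPKM. It stood at 7.31 and 59.2 RPKM in embryos, 14.9 and 12.2 in instar 4 larvae, 0.613 and 67.2 in early pupae, and 0.284 and 0.322 in late pupae. Workers had 0.658 RPKM in replicate 1 and 0 reads in replicate 2, where 3 reads would be 0.444 RPKM, and males had 0.503 and 0.908 RPKM. The instar 1 libraries thus stood at least 204-fold above the next library, early pupa replicate 2, and the traces elsewhere were uneven between replicates of embryos and of early pupae.

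HSALG003196.2, of 303 bases, stood at 8586 and 15847 RPKM in instar 1 larvae. It stood at 0.222 and 70.2 RPKM in embryos, from 1 and 442 reads, at 3.90 and 5.18 in instar 4 larvae, and at 3.91 and 5.89 in early pupae. Late pupae had 4.17 and 1.57 RPKM, workers 0.720 and 0.378, and males 8.14 and 26.7. Embryo replicate 2 was the next highest library, and embryo replicate 1 was the lowest of all 14.

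A neighbouring pair by identifier, HSALG014454.2 and HSALG014455.2, of 501 and 483 bases, was abundant in the first instar and close to absent in workers. HSALG014455.2 stood at 3822 and 8734 RPKM in instar 1 larvae, 4.88 and 255 in embryos, 8.02 and 6.50 in instar 4 larvae, 3.68 and 0.596 in early pupae, 9.10 and 14.5 in late pupae, 0.151 and 0 in workers, and 0.941 and 12.4 in males. HSALG014454.2 stood at 3015 and 6910 RPKM in instar 1 larvae, 0.673 and 44.9 in embryos, 62.2 and 71.3 in instar 4 larvae, 2.72 and 9.42 in early pupae, 4.61 and 10.5 in late pupae, and 0.130 and 1.23 in males, with 0 reads in both worker libraries. The pair parted in instar 4, where HSALG014454.2 was the higher of the pair in both libraries. As a description, their log2(RPKM + 1) levels had a Pearson r of 0.90 over all 14 libraries and of 0.611 over the 12 other than instar 1, where both models share each library and its depth. The rule sets both instar 1 levels of every member above its other 12 libraries. That alone raises r over all 14 libraries for any pair of members. Both models also stood higher in embryo replicate 2 than in replicate 1.

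The remaining members among the 6 most abundant were also high in other stages. HSALG004400.2, the shortest member at 210 bases, stood at 10153 and 22635 RPKM in instar 1 larvae, 6.74 and 23.8 in embryos, 1051 and 1482 in instar 4 larvae, 7.06 and 1200 in early pupae, 3.14 and 1.55 in late pupae, 684 and 790 in workers, and 1866 and 2494 in males. It was thus abundant in both larval instars, in workers and in males, and low in embryos and late pupae. HSALG005522.2, of 345 bases, stood at 3028 and 6472 RPKM in instar 1 larvae, 4.69 and 276 in embryos, 1277 and 1493 in instar 4 larvae, 5.50 and 240 in early pupae, 3.51 and 2.17 in late pupae, 0.316 and 0.498 in workers, and 0.565 and 1.02 in males. This second model was high in both larval instars and at most 1.02 RPKM in all worker and male libraries.

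**Figure D3:**
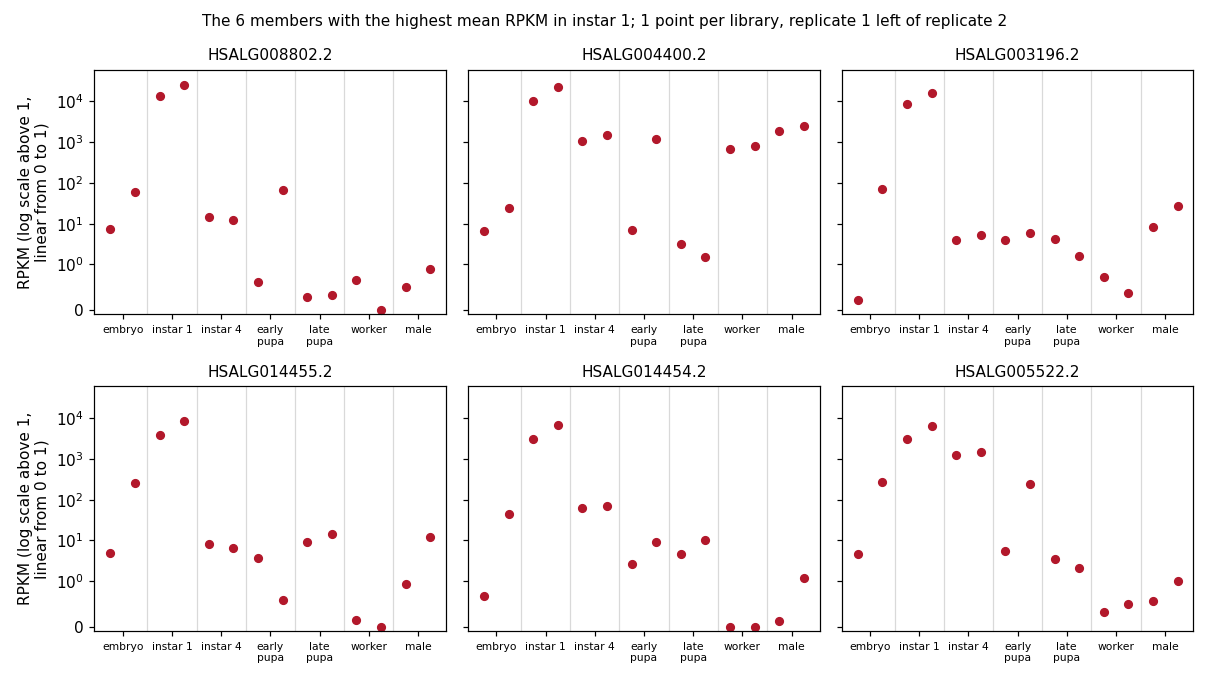
RPKM of the 6 members with the highest mean in instar 1, in each of the 14 libraries, on an axis that is logarithmic above 1 and linear from 0 to 1. All 6 peak in the instar 1 libraries, HSALG004400.2 also stands between 684 and 2494 in instar 4 larvae, workers and males, and replicate 2 lies above replicate 1 in embryos for each of the 6.

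The next 4 members by margin stood far below their instar 1 levels in each other library, HSALG022426.1 with almost no reads. HSALG022426.1, of 267 bases, had 725 and 722 reads in instar 1 larvae, or 189 RPKM in each, and 1 and 21 reads in embryos. Its other 10 libraries held between 0 and 4 reads, with 0 in 7 of them, where 3 reads would be between 0.28 and 0.987 RPKM. HSALG010059.1 averaged 1554 ± 215 RPKM and HSALG010060.2 averaged 1245 ± 100 RPKM in instar 1 larvae (mean ± SD, n = 2), against 1.12 and 41.2 RPKM and 0.177 and 52.5 RPKM in the embryo libraries. HSALG010059.1 kept 2.94 to 26.8 RPKM in instar 4 larvae, pupae and males, while HSALG010060.2 stayed between 0.156 and 5.74 RPKM there. HSALG023132.1 averaged 538 ± 181 RPKM in instar 1 larvae (n = 2), against 0.381 and 18.2 RPKM in embryos and 10.2 and 10.9 RPKM in instar 4 larvae.

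At the other end, 21 members were present at 10 RPKM or more in all 14 libraries, 28.4% of the members, where 8.0% of tested HSALG models were. The rule places both instar 1 levels of a member above its other 12 libraries. Members therefore meet this level in instar 1 more easily than other models, and the shares are not like for like. These broadly present members were chosen after their values were seen, and 20 of them lay in the narrowest margin class. Their median group mean was 935 RPKM in instar 1 larvae, 241 in embryos, 142 in males, 138 in workers, 108 in early pupae, 85 in late pupae and 78.4 in instar 4 larvae. The lower instar 1 value was a median of 2.29 times the highest value elsewhere, and embryos were the next highest group for 16 of the 21. HSALG011060.2 is an example, with 1296 and 1755 RPKM in instar 1 larvae, 587 and 486 in embryos, 179 and 167 in instar 4 larvae, 287 and 229 in early pupae, 234 and 165 in late pupae, 447 and 404 in workers, and 584 and 436 in males. Membership near a 2-fold margin depends on how libraries are scaled. With the libraries set to a common median, 230 models met the rule, 68 of them among the 74, and with quantile scaling 83 did, with 45 shared. Without instar 1 replicate 1 or 2 the rule gave 172 and 134 models, and without embryo replicate 2 it gave 116.

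Embryos were the next highest group for 42 of the 74 members, males for 13, workers and instar 4 larvae for 7 each, early pupae for 3 and late pupae for 2. The next highest single library was embryo replicate 2 for 32 members and embryo replicate 1 for 15. The lowest group mean lay in late pupae for 27 members and in instar 4 larvae for 21.

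The members often differed between the embryo libraries, which is given here as a description with no test. Of the 74 members, 55 were higher in embryo replicate 2 than in replicate 1, and 22 of them by at least 4-fold on the log2(RPKM + 1) scale, or 29.7%. Among all 12421 genes tested, 42.9% were higher in replicate 2 and 2.90% by at least 4-fold. No member was at least 4-fold higher in replicate 1. All 10 members with a margin of 3 or more were higher in replicate 2, with a median difference of 4.55 on the log2 scale, against 0.19 for the 57 members with a margin of 1 to 2. In those 10, embryo replicate 2 held between 0.307% of the instar 1 mean, in HSALG008802.2, and 5.41%, in HSALG005945.2. The margin itself caps this share. The labels give no embryo age.

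**Figure D4:**
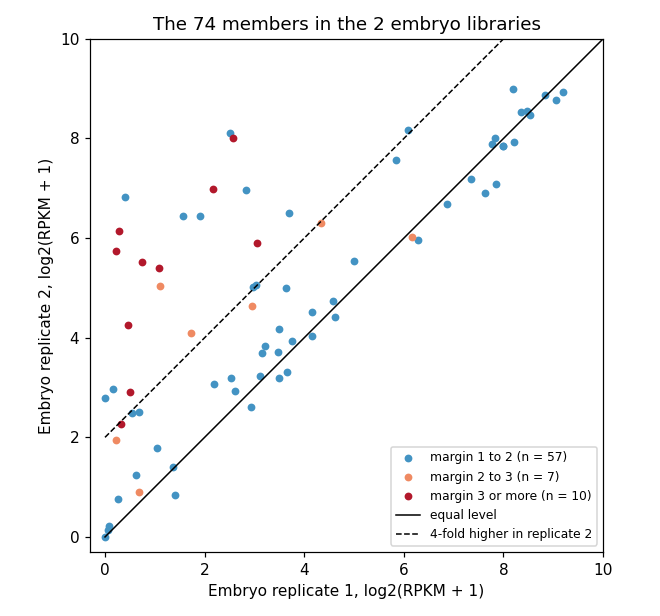
Level of the 74 members in embryo replicate 2 against embryo replicate 1, as log2(RPKM + 1), with 1 point per member, colours for the margin, a solid line for equal levels and a dashed line for a 4-fold excess in replicate 2. Of the points, 22 lie on or above the dashed line, 9 of them among the 10 members with a margin of 3 or more.

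In early pupae, 28 of the 74 members were higher in replicate 2 than in replicate 1, where 20.3% of all tested genes were. By at least 4-fold, 12 members were higher in replicate 2 (16.2%) and 1 lower, where 2.88% of all tested genes were higher. Of the 6 most abundant members, HSALG008802.2, HSALG004400.2 and HSALG005522.2 were at least 4-fold higher in early pupa replicate 2. HSALG008802.2 and HSALG005522.2 were also at least 4-fold higher in embryo replicate 2, and HSALG004400.2 was not. The excesses in embryos and in early pupae thus fell partly on the same models. In late pupae 14 members were higher in replicate 2, where 62.7% of all tested genes were, with a median log2 difference of -0.40 for the members and 0.14 for all genes. The instar 1 libraries had 0 members 4-fold apart and a median absolute log2 difference of 0.44 for the members and for all tested genes alike. That was less than in embryos (0.64 and 0.49) and early pupae (0.66 and 0.68). It was no less than in late pupae (0.44 and 0.31), males (0.35 and 0.42), instar 4 larvae (0.21 and 0.18) or workers (0.16 and 0.23). The rule uses the lower instar 1 value, so it disfavours models whose instar 1 libraries differ. Of the members, 41 were higher in instar 1 replicate 2, against 29.7% of all tested genes, and 8 of the 10 with a margin of 3 or more were higher there.

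Comparisons among the other 6 groups have no instar 1 mean in them, although the rule set a ceiling on each member there and the spread between the instar 1 libraries enters the shared error of the fit. Without both instar 1 libraries, 45 members and 7995 of all 12421 tested genes were called for variation over the 6 groups. The counts were 40 members and 6886 genes for instar 4 larvae minus embryos, and 8 and 728 for late pupae minus instar 4 larvae. For workers minus late pupae they were 12 and 1221, and for males minus workers 0 and 343. log2(RPKM + 1) was fitted with limma across the 12421 genes that reached 1 RPKM in 2 or more of the 14 libraries, and p-values were adjusted with the Benjamini-Hochberg method over all of them. All 74 members passed this filter, since both instar 1 values of a member reach 1 RPKM, and 68 passed it on the other 12 libraries alone. A moderated F test over the 6 other groups called 48 of the 74 members (limma, adjusted p below 0.05), or 64.9%, where 64.8% of all genes tested were called. Under RPKM, the share of members that varied outside the first instar was thus close to that of all genes. With median scaling the F test called 27 members and 6885 of all 12421 genes, and with quantile scaling 31 members and 6599 genes, against 8045 genes under RPKM. With the filter set on the 12 other libraries alone, 47 of 68 members and 8051 of 12326 genes were called. By margin, 3 of the 10 widest, 5 of the next 7 and 40 of the 57 narrowest were called.

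Between instar 4 larvae and embryos, 7 members were called higher in instar 4 and 36 lower. Of all tested genes, 4.87% were higher and 50.0% lower, so the members' shares of 9.46% and 48.6% lay near the background for the lower ones. The median difference was -1.23 for the members and -1.13 for all genes, on the log2 scale. The direction flipped with the scaling of the libraries. With all libraries set to a common median the split became 13 higher and 1 lower, and with quantile scaling 8 and 9. Over all genes, median scaling gave 2281 higher and 1645 lower, against 605 and 6207 under RPKM, and a median difference of 0.10 for all genes and -0.01 for the members. Quantile scaling gave 1350 genes higher and 1813 lower. The median difference also depended on the embryo library. Without embryo replicate 2 it was -0.62 for the members and -1.23 for all genes, and without embryo replicate 1 it was -1.52 and -1.

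HSALG004400.2 rose to 1051 and 1482 RPKM in instar 4 larvae, against 6.74 and 23.8 RPKM in embryos, a log2 difference of 6.49 ± 1.62 (SE; limma, adjusted p = 0.00597). Without embryo replicate 1 it missed the threshold (limma, adjusted p = 0.0523). HSALG021772.1, of 588 bases, rose to 92.5 and 154 RPKM in instar 4 larvae, against 0.115 and 6.87 RPKM in embryos, a log2 difference of 5.34 ± 1.19 (limma, adjusted p = 0.00329). Both libraries of instar 4 larvae lay above both embryo libraries for each model. HSALG012586.2 fell to 1.76 and 1.89 RPKM in instar 4 larvae, against 19.3 and 78.4 RPKM in embryos, a log2 difference of -3.83 ± 0.66 (limma, adjusted p = 0.000912). HSALG006862.2 fell to 2.60 and 1.70 RPKM in instar 4 larvae, against 11.5 and 31.0 RPKM in embryos, or -2.68 ± 0.47 on the log2 scale (limma, adjusted p = 0.000942). Under median and quantile scaling it missed the threshold (limma, adjusted p up to 0.0842).

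Late pupae had 10 members called lower and 1 called higher than instar 4 larvae. That is 13.5% of the members lower and 1.35% higher, where 2.87% of all tested genes were lower and 5.54% higher, 8.41% in all. The median difference was -0.10 for the members and 0.36 for all genes. Median scaling gave 10 members lower and 0 higher, with medians of -0.59 for the members and -0.13 for all genes, of which 630 were lower and 491 higher. Quantile scaling gave 12 members lower and 1 higher, with medians of -0.13 for the members and -0.05 for all genes. Of all genes, 850 were then lower and 903 higher, against 356 and 688 under RPKM. The gap between the medians and the background of lower genes thus depended on the scaling. HSALG004400.2 fell to 3.14 and 1.55 RPKM in late pupae, against 1051 and 1482 RPKM in instar 4 larvae, a log2 difference of -8.59 ± 1.62 (limma, adjusted p = 0.0136). HSALG005522.2 fell to 3.51 and 2.17 RPKM in late pupae, against 1277 and 1493 RPKM in instar 4 larvae, a log2 difference of -8.51 ± 1.65 (limma, adjusted p = 0.0151). The groups did not overlap for either model, and early pupae held both levels, with replicate 1 near late pupae and replicate 2 nearer instar 4 larvae. The 1 member that rose was HSALG006862.2, at 21.0 and 10.2 RPKM in late pupae, against 2.60 and 1.70 RPKM in instar 4 larvae (log2 difference 2.33 ± 0.47; limma, adjusted p = 0.0169).

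Between late pupae and instar 4 larvae, the number of calls fell among the members and among all genes alike when a library was left out. In place of 11 members and 1044 genes, it was 2 members and 114 genes without instar 4 replicate 1, and 1 and 89 without instar 4 replicate 2. It was 1 member and 171 genes without late pupa replicate 1, 2 and 176 without late pupa replicate 2, and 6 members with 523 and 522 genes without worker replicate 1 or 2. The calls of HSALG004400.2 and HSALG005522.2 were lost without any 1 of the 4 libraries compared, with adjusted p up to 0.110 and 0.113, and that of HSALG006862.2 under median scaling and without instar 4 replicate 1 or 2 or late pupa replicate 1, with adjusted p up to 0.144 (limma).

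Adult workers had 11 members called higher and 1 called lower than late pupae. That is 14.9% of the members higher and 1.35% lower, where 7.38% of all tested genes were higher and 3.13% lower. The median difference was 0.42 for the members and 0.00 for all genes. With median scaling it was 0.48 and 0.07, with 13 members called higher and 0 lower. With quantile scaling it was 0.04 and 0, with 10 higher and 2 lower, so the members' median shift depended on the scaling. Over all genes, median scaling gave 1120 higher and 628 lower, and quantile scaling 952 and 781. HSALG004400.2 rose to 684 and 790 RPKM in workers, against 3.14 and 1.55 RPKM in late pupae, a log2 difference of 7.82 ± 1.62 (limma, adjusted p = 0.00990). HSALG021772.1 rose to 77.5 and 160 RPKM in workers, against 0.28 and 0.0849 RPKM in late pupae, a log2 difference of 6.58 ± 1.19 (limma, adjusted p = 0.00485). In workers, HSALG021772.1 overlapped its instar 4 levels and HSALG004400.2 stood below them. Late pupae served as one side of this comparison and of the one before, so the values of both comparisons are tied. HSALG011385.2 fell to 2.37 and 1.43 RPKM in workers, against 163 and 31.1 RPKM in late pupae, or -4.66 ± 1.29 on the log2 scale (limma, adjusted p = 0.0422). It missed the threshold under 12 of 26 other settings, with an adjusted p up to 0.225 (limma).

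None of the 10 members with a margin of 3 or more was called between workers and late pupae, where 3 of the next 7 and 9 of the 57 narrowest were called. In place of 12 members and 1306 genes, the calls were 3 members and 479 genes without late pupa replicate 2, 5 and 499 without worker replicate 1, and 2 and 433 without worker replicate 2. They were 20 members and 1410 genes without embryo replicate 1, 21 and 1412 without embryo replicate 2, and 20 members with 2245 and 2246 genes without early pupa replicate 1 or 2. The call of HSALG021772.1 was lost without worker replicate 2 (limma, adjusted p = 0.0636), and that of HSALG004400.2 without late pupa replicate 2 or either worker library (limma, adjusted p up to 0.0876).

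Of the members, 6 were called lower in late pupae than in instar 4 larvae and higher in workers than in late pupae, HSALG004400.2 and HSALG021772.1 among them. The other 4 are named here after their values were seen. Genes called in both comparisons were not counted over all tested genes, and both comparisons use the late pupa libraries. Whether 6 members is more than the share among all genes would give was therefore not tested. HSALG002149.1 stood at 81.0 and 283 RPKM in instar 4 larvae, 14.4 and 13.1 in late pupae, and 76.5 and 129 in workers, and was called in both comparisons, with log2 differences of -3.37 ± 0.61 for late pupae minus instar 4 larvae and 2.77 ± 0.61 for workers minus late pupae (limma, adjusted p = 0.0115 and 0.0136). HSALG003807.1 stood at 394 and 455 RPKM in instar 4 larvae, 111 and 81.9 in late pupae, and 558 and 541 in workers, with log2 differences of -2.14 ± 0.49 and 2.51 ± 0.49, both called (limma, adjusted p = 0.0254 and 0.00714). Their instar 1 levels were 3036 and 2241 RPKM for HSALG002149.1 and 2205 and 1489 RPKM for HSALG003807.1. HSALG002063.1 had log2 differences of -2.20 ± 0.61 and 3.55 ± 0.61 (limma, adjusted p = 0.0493 and 0.00368), and HSALG017812.2 of -1.23 ± 0.30 and 1.77 ± 0.30 (limma, adjusted p = 0.0325 and 0.00348). These 4 models were not followed through the other settings.

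Between males and workers, 1 member was called higher and 0 lower, or 1.35% in all, where 2.99% of all tested genes were called, 1.69% higher and 1.30% lower. HSALG006862.2 rose to 25.7 and 38.1 RPKM in males, against 7.38 and 7.08 RPKM in workers, a log2 difference of 1.97 ± 0.47 (limma, adjusted p = 0.0466). It missed the threshold under 16 of 26 other settings, with an adjusted p up to 0.303 (limma). The count was 4 and 5 without embryo replicate 1 or 2, 2 without either early pupa library or male replicate 1, and 0 without male replicate 2 or any 1 library of instar 1 larvae, instar 4 larvae or workers. At an unadjusted p below 0.05 limma gave 10 of 74 members and 1987 of 12421 genes, and the median difference was 0.12 for the members and 0.03 for all genes.

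**Figure D5:**
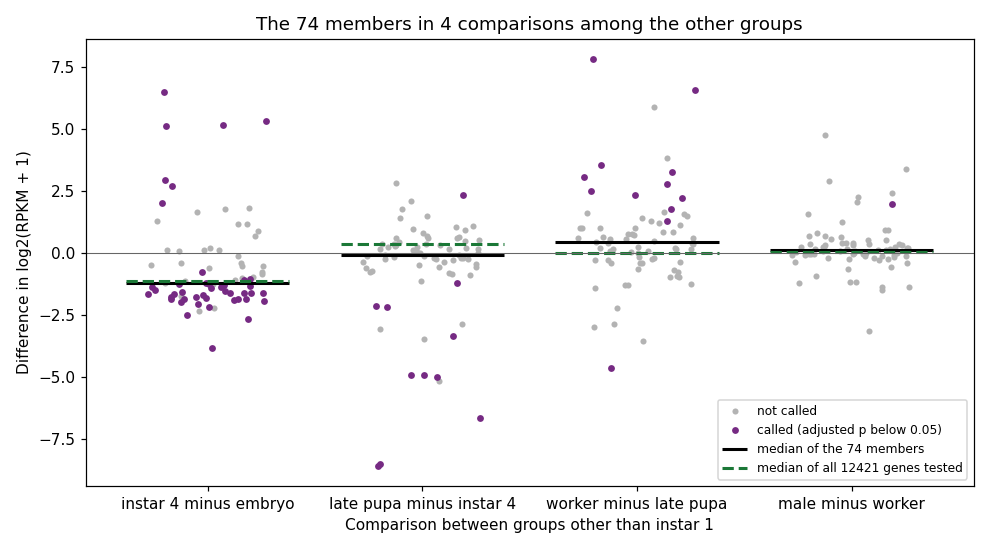
Difference in log2(RPKM + 1) of the 74 members in 4 comparisons among groups other than instar 1, with 1 point per member, purple where limma called it, a black bar for the members' median and a dashed green bar for the median of all 12421 tested genes. The members' median lies by the median of all genes in instar 4 larvae minus embryos (-1.23 and -1.13), where median scaling turned the calls to 13 higher and 1 lower, and the 10 calls below 0 in late pupae minus instar 4 larvae reach -8.59.

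Members tended to be short gene models. The rule did not name length, but RPKM divides reads by length, so length enters the values that the rule used. The coding length, resolved from the steps of the RPKM values, ran from 210 to 4464 bases with a median of 600, against a median of 1036 over 11950 other tested HSALG models. Of the members, 50.0% were under 600 bases, and of all tested HSALG models 28.1%. The median was 435 bases in the 10 members with a margin of 3 or more, 960 in the next 7 and 651 in the 57 narrowest. Short models were not confined to wide margins. The 21 members at 10 RPKM or more in all 14 libraries, 20 of them in the narrowest class, had a median of 447 bases. Of these 21, 16 were under 600 bases. Lengths were multiples of 3 in 73 of the 74 members. Short models hold fewer reads at a given RPKM, and the link of length to membership was not tested.

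Identifiers with a version suffix of 2 made up 55.4% of the members and 52.2% of all tested HSALG models. In 5 runs, holding 11 members or 14.9%, identifier numbers lay at most 2 apart, and the sources used here do not say whether numbers follow genome order. The same count was 33.3% in models restricted to late pupae under the same rule, 25.3% in those of workers, 17.6% in those of embryos, 14.2% in those of males, and 0.0% in those of instar 4 larvae and of early pupae. Of these runs, picked here after their values were seen, HSALG010059.1 and HSALG010060.2 had a Pearson r of 0.927 over the 14 libraries, and of 0.617 over the 12 other than instar 1. The rule itself raises r over the 14 libraries, and both models stood higher in embryo replicate 2 than in replicate 1. No r of members outside the runs is given for comparison. HSALG028247.1 and HSALG028248.1 kept a ratio of 1.40 to 1.44 in RPKM in all 14 libraries. They stood at 376 and 373 RPKM and at 264 and 267 RPKM in instar 1 larvae, and at 162 and 145 RPKM and 115 and 102 RPKM in embryos, so the pair may share reads, and separate levels for each are uncertain. The run of HSALG011385.2, HSALG011386.2 and HSALG011387.2 was unequal, with instar 1 levels of 1061 and 1987, 14.8 and 20.5, and 7.31 and 11.3 RPKM.

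The rule, applied to each group in turn, gave 74 models for instar 1 larvae, 329 for embryos, 127 for males, 99 for workers, 33 for late pupae, 13 for instar 4 larvae and 2 for early pupae. The median level in its own group was 265 RPKM for the instar 1 set, against 228 for the instar 4 set, 198 for the early pupa set, 172 for the late pupa set, 106 for the male set, 75.6 for the worker set and 30.5 for the embryo set. Median coding lengths were 600 bases for the instar 1 set, against 1332 for embryos, 1236 for instar 4 larvae, 969 for workers, 765 for males, 756 for late pupae and 730.5 for early pupae. A margin of 3 or more was met by 13.5% of the instar 1 set, against 22.2% for workers, 18.9% for males, 18.2% for late pupae, 9.73% for embryos, 7.69% for instar 4 larvae and 0.0% for early pupae. These differences between sets are descriptions with no test.

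The threshold fell in a dense range of margins, with 14 members within 0.1 above it and 18 HSALG models within 0.1 below. The members just inside were HSALG005999.1 at a margin of 1.004, with 513 and 611 RPKM in instar 1 larvae against 255 RPKM in the next library, embryo replicate 1, and HSALG023511.1 at 1.01, with 1024 and 1179 against 508 RPKM in embryo replicate 2. Just outside lay HSALG008124.2 at 0.992, with 159 and 103 RPKM in instar 1 larvae against 51.2 RPKM in worker replicate 2, and HSALG008007.2 at 0.981, with 536 and 688 against 271 RPKM in embryo replicate 2.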

How the data were processed

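Poly(A) RNA from whole bodies was made into strand-specific dUTP libraries, per the labels' protocols. The deposited values are RPKM for 20755 gene models, 1 column per library, computed by the authors. The submitters' processing notes list STAR (version 2.5.0b) and DESeq2 without saying what each did; the sources used here do not give the counter, genome build or gene lengths.

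Whole reads and coding lengths were resolved from the RPKM steps within a relative tolerance of 1e-05, for all 18543 models above 0. Intervals and floors of 3 reads cover counting error only. The 12421 models that reached 1 RPKM in 2 or more libraries were tested. log2(RPKM + 1), with a pseudocount of 1 that understates changes of low genes, went into 1 limma fit of all 14 libraries (limma 3.58.1, R 4.3.3), with a variance trend and no replicate block. Tests were two-sided, with Benjamini-Hochberg adjustment over all tested genes and calls at adjusted p below 0.05. Python 3.11.15 drew the figures.

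Named members were the 6 most abundant in instar 1, the next 4 by margin, up to 2 called higher and 2 called lower per comparison without overlap and with a mean of at least 1 RPKM in the higher group, and the models beside the threshold; others are said to be chosen later. The members, the margin classes and the comparisons were chosen with earlier results of these data known. Alternatives were a pseudocount of 0.1, other filters, median and quantile scaling, no trend, fewer libraries, a replicate block, limma-voom on the resolved reads, and leaving out each library.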

Additional observations from a re-analysis of the deposited data

How the results depend on the processing

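Under 28 other settings, 47 of 149 recomputed counts changed by over 1.5 times and 102 did not. Differences of named members were recomputed 286 times, of which 239 kept direction and call, 47 lost the call and 0 reversed. The causes were not tested, except that fewer libraries or genes enter some fits. The number of members was 230 under median scaling, 126 with the mean of the instar 1 values and 17 at a margin of 2. Members varying over the 6 other groups were 27 under median and 31 under quantile scaling. For instar 4 minus embryo, median scaling gave 14 members and 3926 of 12421 genes, and quantile scaling 17 members and 3163 genes. For late pupa minus instar 4, no filter gave 7 of 74 members and 526 of 18543 genes. With only the libraries compared it was 21 of 74 members and 3486 of 12421 genes, so the 2 shares were then close. For worker minus late pupa, the count was 20 members and 2249 of 12421 genes without both early pupa libraries. It was 28 members and 3289 genes with only the libraries compared. For male minus worker, 2 members were called without both early pupa libraries, with 679 genes, and 2 with only the libraries compared, with 226 genes. The count was 0 members with log2(RPKM + 0.1), no filter, median scaling, without both instar 1 libraries, the replicate block and limma-voom. In those fits 262 to 471 of all genes were called, and limma at unadjusted p below 0.05 gave 7 to 11 members.

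Leaving out each library, with a lone library assumed to vary like the others, gave 74 to 172 members (172 and 134 without instar 1 replicate 1 or 2, 116 without embryo replicate 2), 37 to 56 varying, 30 to 43 for instar 4 minus embryo, 1 to 15 for late pupa minus instar 4, 2 to 21 for worker minus late pupa and 0 to 5 for male minus worker (with 0, limma at unadjusted p below 0.05 gave 3 to 8). Over all tested genes, libraries with the same number did not deviate together (r from -0.26 to 0.15 in 21 group pairs). The labels do not say that replicate numbers pair libraries. Among the members, HSALG008802.2 and HSALG005522.2 were at least 4-fold higher in replicate 2 of both embryos and early pupae. Whether the members deviate together was not tested. A fit with the replicate block gave 50 varying members and 42, 10, 13 and 0 calls in the 4 comparisons.

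With 2 libraries per group, small differences could not be detected.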

Other observations

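Among the 438 XLOC loci, 2 met the same margin. XLOC_112813 stood at 13.4 and 15.4 RPKM in instar 1 larvae, against at most 0.572 RPKM in the other 12 libraries, with a margin of 3.20. XLOC_069368 stood at 48.1 and 120 RPKM in instar 1 larvae, against 3.16 to 21.2 RPKM in the others.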
